A study of Mus musculus with 8 samples.

Results

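The transcripts examined here encode the neuropeptides and granins of the mossy fibre pathway and hilus of the dentate gyrus: Penk, Pdyn, Tac1, Tac2, Crh, Cartpt, Adcyap1, Vgf, Scg2 and Chgb. Every probe that the array annotation assigns to one of these 10 gene symbols was taken, which gave 16 of the 56605 probes on the array. Of these, 15 were kept for testing among 40001 probes of 19922 genes, which required a signal well above background on each array of some group. Each of the 15 exceeded background on all 8 arrays, whereas a single Tac1 probe (A_52_P630806) was so on 0 of 8 arrays and was not tested. All 10 genes thus had at least 1 tested probe, and no filter on dim signals favoured a group among them. A gene with several probes is represented by its brightest probe over the 8 arrays, and its other probes are given beside it.

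The arrays were hybridised with dentate gyrus RNA from males of the C57BL/6 strain at 8 to 9 weeks of age, with no treatment given in the labels. Mice of the Derlin-1 line were homozygous for a floxed Derl1 allele (Derlin-1 flox/flox), and mice of the Derlin-2 line for a floxed Derl2 allele (Derlin-2 flox/flox). KO mice of either line additionally carried Cre recombinase driven by the nestin promoter, whereas Derlin-1 control and Derlin-2 control mice were described by the floxed alleles alone. By these descriptions, loss of a Derlin gene and presence of Cre coincide and cannot be told apart. Because the nestin promoter is active in neural progenitors, deletion by this driver covers neurons and glia of the central nervous system and is not limited to granule neurons. Each of the 4 groups had 2 arrays, and the labels do not say whether these came from separate animals, so p-values measure the spread between these arrays only. The samples labelled KO carry the floxed genotype in their genotype field, so the groups rest on the sample titles. Controls and KO samples of a line shared a slide, but each line had its own slide, so slide and line cannot be told apart.

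Neuropeptides are made as larger precursors that fold in the endoplasmic reticulum (ER), are sorted in the Golgi into dense-core vesicles and are cut into active peptides inside these vesicles. Granins are acidic proteins that help to build the vesicles and are themselves sources of peptides. In the dentate gyrus, the mossy fibres, which are the axons of granule neurons, release opioid peptides onto CA3 pyramidal neurons, and the hilus between the granule blades holds mossy cells and many peptide-containing interneurons. Derlin-1 and Derlin-2 are ER membrane proteins that take part in the removal of misfolded proteins, and the design asks how loss of either one alters gene expression in this region.

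Several of these genes are textbook targets of cyclic AMP signalling, which acts through the cyclic AMP response element (CRE), the palindrome TGACGTCA. The 250 bases before the annotated start were available for 7 of the 10 genes, from RefSeq on GRCm38.p6. Penk, Crh and Vgf had no entry. The full palindrome was present in 3 of these 7 genes, and in 1.55% of all 32851 promoters of the same length. These 3 promoters are printed 5′ to 3′ in the direction of transcription, with the palindrome in capitals, because they share this element.
Cartpt, chr13:99900684-99900933, minus strand: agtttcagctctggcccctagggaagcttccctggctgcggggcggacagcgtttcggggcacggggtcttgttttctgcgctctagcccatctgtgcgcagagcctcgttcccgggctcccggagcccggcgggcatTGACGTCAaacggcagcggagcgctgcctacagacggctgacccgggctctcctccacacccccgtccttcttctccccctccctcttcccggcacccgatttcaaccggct
Scg2, chr1:79440027-79440276, minus strand: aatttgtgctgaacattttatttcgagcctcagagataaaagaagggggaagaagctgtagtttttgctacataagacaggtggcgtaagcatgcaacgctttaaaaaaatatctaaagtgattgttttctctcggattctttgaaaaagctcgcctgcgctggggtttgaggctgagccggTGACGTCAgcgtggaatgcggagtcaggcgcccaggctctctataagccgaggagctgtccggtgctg
Chgb, chr2:132781392-132781641, plus strand: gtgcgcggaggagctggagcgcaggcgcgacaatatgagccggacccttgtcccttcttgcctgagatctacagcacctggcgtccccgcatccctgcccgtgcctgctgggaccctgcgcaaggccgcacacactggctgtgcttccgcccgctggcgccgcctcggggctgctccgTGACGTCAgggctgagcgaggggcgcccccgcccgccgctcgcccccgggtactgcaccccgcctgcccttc
Counted back from the annotated start, the palindrome began at base -112 in Cartpt, -68 in Scg2 and -72 in Chgb. The shorter element TGACG, which the palindrome contains on both strands, was in 17.8% of all promoters when either strand was read. It occurred at 2 places before Tac1 and at 1 place before Adcyap1, where the windows of both annotated starts overlap and hold the same site. Neither motif was in the window of Pdyn or Tac2. A match is a description of the sequence and shows no binding.

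Signals are quantile-normalized log2 intensities, in which a difference of 1 is a 2-fold difference, and they compare a probe between arrays but not one gene with another. On each array 67.6% to 70.8% of probes exceeded background clearly, and 0 spots were saturated. All 9 granule neuron markers, among them Prox1 and Calb1, were well above background on all 8 arrays. The brightest Derl1 probe (A_51_P504522) read 10.85 and 10.76 in Derlin-1 controls against 10.57 and 10.66 in KO, a difference of -0.19 with a limma p of 0.116. The second Derl1 probe (A_65_P08342) read 7.37 and 7.36 in controls against 7.94 and 7.71 in KO, a difference of 0.46 with a limma p of 0.00721. Neither probe overlapped between the groups, the directions were opposite, and the adjusted p was 0.9997 for both. The second probe thus goes against the KO label, and whether either probe lies in the deleted part of Derl1 is not known here, so Derlin-1 KO stands below for the arrays labelled so. Derl2 was lower in Derlin-2 KO by both of its probes, with differences of -0.64 and -1.04 (limma adjusted p = 0.259 and 0.214).

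**Figure D1:**
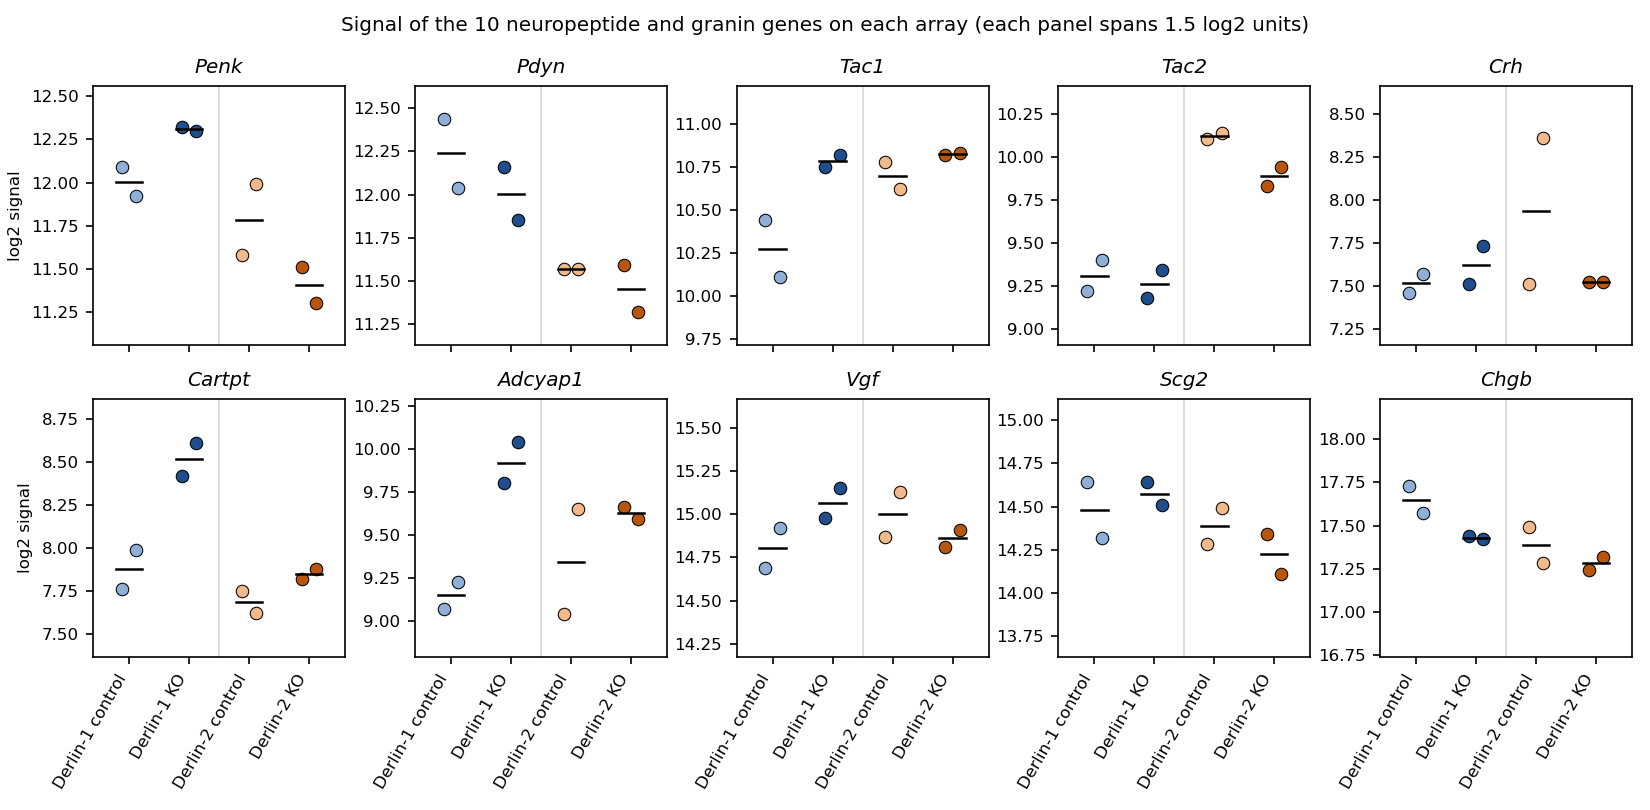
Log2 signal of the brightest probe of each gene (vertical axis, log2 units, each panel spanning 1.5 units) on the 2 arrays of each of the 4 groups (points), with group means as bars. Cartpt, Adcyap1 and Tac1 lie above both controls on both Derlin-1 KO arrays, and Crh stands at 8.36 on a single Derlin-2 control array.

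Arrays labelled Derlin-1 KO were first compared with their controls for these transcripts. None of the 10 genes passed the threshold of an adjusted p of 0.05 in limma, which 0 of all 39981 tested probes passed (0%). Cartpt, Adcyap1 and Tac1 had the largest differences, 0.63, 0.77 and 0.51 higher in Derlin-1 KO, and an unadjusted limma p under 0.05. All probes met this looser rule in 4.72%, with 2.94% higher in KO and 1.77% lower. The other 7 genes did not reach that level, with differences between -0.23 and 0.31. As RNA came from whole tissue, a change in the number of cells of a type and a change in RNA per cell cannot be told apart for any of these genes.

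Cartpt encodes the precursor of CART, a peptide known from feeding circuits and from the response to psychostimulants. Its log2 signals were 7.76 and 7.99 in the Derlin-1 controls, compared with 8.42 and 8.61 on the arrays labelled Derlin-1 KO. Both KO arrays thus lay above both controls, and the means were 7.88 ± 0.16 (SD, n = 2) in controls and 8.51 ± 0.13 (SD, n = 2) in KO. This difference of 0.63 (SE 0.13) corresponds to 1.55-fold, with a 95% interval of 1.25-fold to 1.93-fold. Its limma p of 0.00253 was the smallest among the 10 genes and ranked 86th of 39981 probes, and the adjusted p was 0.9997. The probe was printed in row 335 of 384, and the probes within 10 rows of it had a median difference of -0.024.

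Adcyap1 encodes PACAP, a peptide that raises cyclic AMP in its target cells. Signals of 9.07 and 9.23 on the control arrays compared with 9.80 and 10.04 in KO, and the groups did not overlap. The difference was 0.77 (SE 0.21), or 1.71-fold with a 95% interval of 1.19-fold to 2.45-fold. In limma the unadjusted p was 0.0111 and the adjusted p 0.9997. A second Adcyap1 probe gave control signals of 7.52 and 7.82 against 8.33 and 8.78 in KO, which differ by 0.89 (SE 0.24). Both probes therefore gave the same direction and a similar size.

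Tac1 encodes the precursor of substance P and neurokinin A. Signals of its brightest probe were 10.44 and 10.11 in controls, below the 10.75 and 10.82 of Derlin-1 KO. No overlap was seen, and the difference of 0.51 (SE 0.14) had a limma p of 0.0109 and an adjusted p of 0.9997. A second probe against the same transcript differed by 0.52 (SE 0.19). Another probe, designed against another Tac1 transcript, ranged from 7.80 to 8.86 in controls, spanned both KO values of 8.13 and 8.29, and differed by -0.12 (SE 0.41). Tac2, which encodes the related peptide neurokinin B, read 9.22 and 9.40 in controls, against 9.18 and 9.34 in KO, so the arrays overlapped and the difference was -0.05 (SE 0.12).

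Among the opioid precursors, Penk, the source of the enkephalins, read 12.09 and 11.92 in Derlin-1 controls, against 12.32 and 12.30 in KO. Both KO arrays were above the controls, but the 95% interval of the difference, 0.31, ran from -0.10 to 0.71. A second, much dimmer Penk probe against another transcript overlapped between the groups and differed by -0.20 (SE 0.29). Pdyn, the source of the dynorphins, read 12.44 and 12.04 in controls, against 12.16 and 11.85 in KO, with overlap and a difference of -0.23 (SE 0.19). That difference became -0.03 without control 1 and -0.44 without control 2. Crh, which encodes corticotropin-releasing hormone, also overlapped, at 7.46 and 7.57 in controls against 7.51 and 7.73 in KO.

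The granin family gave no common direction in the Derlin-1 line. Vgf, a granin-like precursor whose transcription follows neuronal activity and neurotrophins, read 14.69 and 14.92 in controls, against 14.98 and 15.15 in KO. Its difference of 0.26 (SE 0.14) came without overlap, whereas a dimmer second Vgf probe differed by 0.02 (SE 0.21). Without control 1 the Vgf difference fell to 0.15. Scg2, which encodes secretogranin II, overlapped at 14.64 and 14.32 in controls and 14.64 and 14.51 in KO. Chgb, which encodes chromogranin B and was printed in 10 spots per array, read 17.73 and 17.57 in controls, against 17.44 and 17.42 in KO. Chgb was the only one of the 10 genes with both Derlin-1 KO arrays below both controls, and its difference of -0.22 had a 95% interval of -0.51 to 0.06. The 3 genes that share the palindrome printed above differed by 0.63 (Cartpt), 0.09 (Scg2, SE 0.16) and -0.22 (Chgb). The 95% intervals of Scg2 and Chgb include 0, and a part of the element in these values was not tested.

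Counted together, 7 of the 10 genes were higher and 3 were lower in Derlin-1 KO, with a median difference of 0.18 beside -0.014 over all genes. Of all genes, 46.1% were higher in Derlin-1 KO. In 5 genes (Penk, Tac1, Cartpt, Adcyap1 and Vgf) both KO arrays exceeded both controls, which was so for 17.2% of all genes, and in 1 gene (Chgb) both were below, as in 16.9% of all genes. When a gene was instead counted if its arrays did not overlap and it differed at least 1.5-fold, Cartpt and Adcyap1 met the rule, as did 2.72% of all genes. In the Derlin-2 line 0 of the 10 genes met it, beside 3.24% of all genes. With 2 arrays a group, the smallest two-sided p of an exact permutation test is 0.333, so none was used. Marker averages of other cell types are given beside these values. The 8 mossy cell markers averaged 8.63 to 8.79 in controls and 8.73 to 8.89 in KO, with 5 higher and 3 lower. Striatal neurons are rich in Penk, Pdyn and Tac1, and the 8 of their 9 markers with a value on every array averaged 8.64 to 8.71 in controls and 8.68 to 8.70 in KO. The ninth, Adora2a, had a value in the Derlin-2 line only on control 2, since outlier spots were left out. In the Derlin-1 line this receptor of striatal neurons read 9.76 and 9.96 in controls against 7.67 and 8.86 in KO, a difference of -1.59 (SE 0.44) with a limma p of 0.0211 and an adjusted p of 0.9997. The 8 choroid plexus markers averaged 6.46 to 6.80 in controls and 6.70 to 7.11 in KO, with 6 higher and 2 lower. All 6 microglia markers were lower in Derlin-1 KO, and their averages of 11.78 to 11.86 in controls and 11.66 to 11.73 in KO did not overlap. Granule neuron markers split into 4 higher and 5 lower, with averages that overlapped, and the lower ones include C1ql2, with a difference of -0.53 (SE 0.21) and an unadjusted limma p of 0.0462, and Plk5, at 13.75 and 13.05 in controls against 12.63 and 12.17 in KO with an unadjusted limma p of 0.0189. The part of these lists in the results was not tested.

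**Figure D2:**
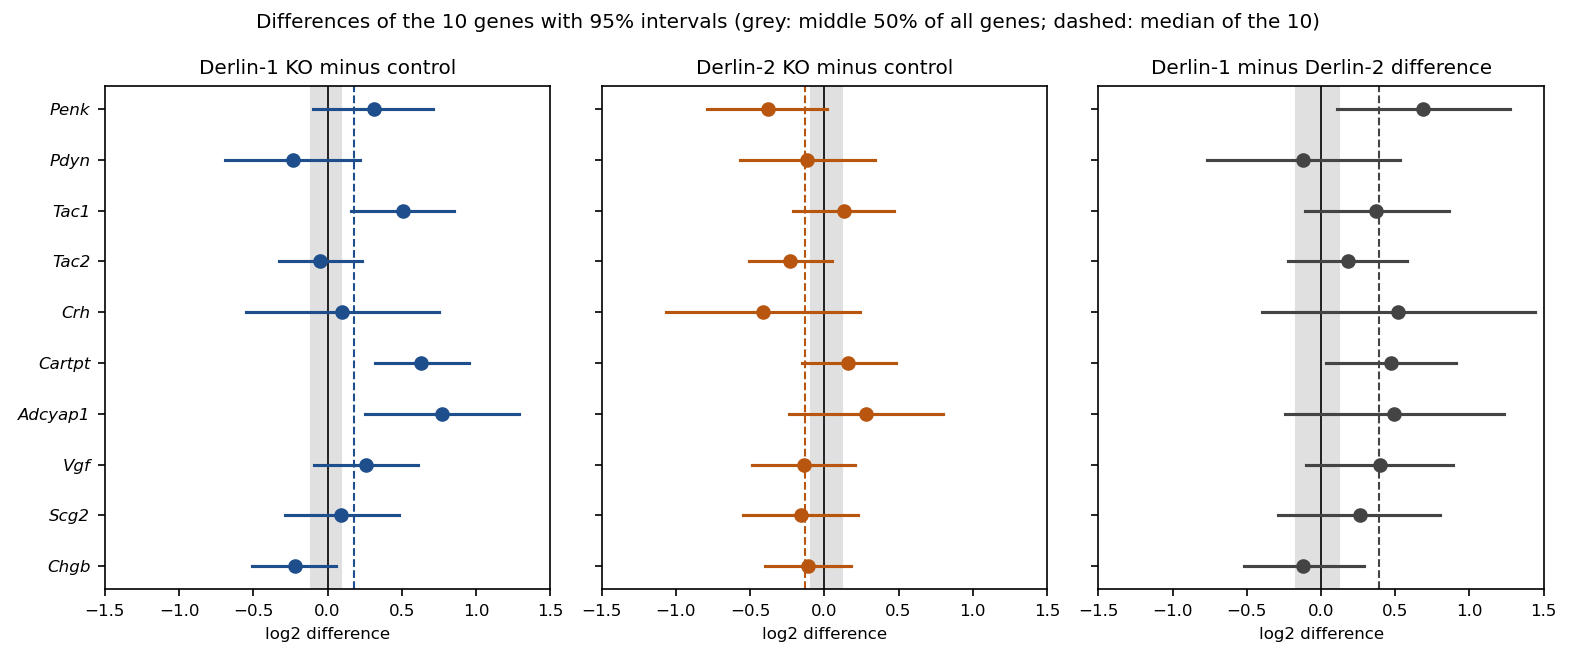
Log2 differences of the 10 genes (points) with 95% intervals (lines) for KO minus control in the Derlin-1 line, KO minus control in the Derlin-2 line, and the first minus the second. Grey bands hold the middle 50% of all genes and dashed lines mark the median of the 10 genes, at 0.18, -0.13 and 0.39. Intervals of Cartpt, Adcyap1 and Tac1 lie above 0 in the Derlin-1 line and all intervals of the Derlin-2 line include 0.

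The same genes were then compared in the Derlin-2 line, which has its own controls. Again 0 of the 10 genes passed the threshold in limma, beside 18 of 39812 probes over the array (0.0452%). None reached an unadjusted p under 0.05 either, which 5.55% of all probes did. Adcyap1, Cartpt and Tac1 were higher in Derlin-2 KO and the other 7 genes were lower, with differences from -0.41 to 0.28 and a median of -0.13, beside 0.015 over all genes. Of all genes, 54.3% were higher in Derlin-2 KO. Both KO arrays exceeded both controls for Tac1 and Cartpt, as for 19.2% of all genes, and both were lower for Penk and Tac2, as for 13.6%.

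Penk had the smallest p of the 10 genes in this line. Its signals were 11.58 and 11.99 in controls and 11.51 and 11.30 in KO, a difference of -0.38 (SE 0.17) with a limma p of 0.0605 and an adjusted p of 0.922. Its second probe also lay below both controls on both KO arrays, with a difference of -0.48 (SE 0.29). Tac2 read 10.10 and 10.14 in controls, against 9.83 and 9.94 in KO, a difference of -0.23 (SE 0.12). The striatal markers averaged 8.74 to 8.82 in controls and 8.59 to 8.79 in KO, which overlap. For both Penk and Tac2 the 95% interval of the brightest probe included 0.

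A single control array set part of the picture. Crh stood at 8.36 on Derlin-2 control 2, against 7.51 on Derlin-2 control 1 and 7.52 on each Derlin-2 KO array. The Crh difference of -0.41 (SE 0.27) became 0.01 without that array. Adcyap1 read 9.04 on control 1 but 9.65 on control 2, level with the KO values of 9.66 and 9.59, and its difference of 0.28 (SE 0.21) became 0.58 without control 2 and -0.03 without control 1. Without control 2 the Penk difference was -0.18 and the median of the 10 genes was -0.03. Without control 1 these values were -0.59 and -0.18. The choroid plexus markers averaged 7.13 on control 1 and 7.84 on control 2, and 7.91 and 7.36 on the KO arrays, so they did not follow the groups.

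The remaining genes differed by little in the Derlin-2 line. Cartpt read 7.75 and 7.62 in controls, against 7.82 and 7.88 in KO, a difference of 0.16 (SE 0.13), and Tac1 read 10.78 and 10.62 against 10.82 and 10.83, a difference of 0.13 (SE 0.14). Arrays of Pdyn overlapped, at 11.57 on each control array and 11.59 and 11.32 in KO. The granins Vgf, Scg2 and Chgb overlapped as well and differed by -0.14, -0.16 and -0.11. Their 95% intervals ran from -0.49 to 0.21 for Vgf, from -0.55 to 0.23 for Scg2 and from -0.40 to 0.18 for Chgb.

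Whether KO and control differed unequally in the lines was tested as the difference of both contrasts, Derlin-1 minus Derlin-2. Of the 10 genes 0 passed in limma, beside 3 of 39810 probes (0.00754%). Penk differed most, by 0.69 (SE 0.24), with a limma p of 0.0261 and an adjusted p of 0.794. This rests on the brightest Penk probe, since the mean of both Penk probes gave 0.05 in the Derlin-1 line and 0.48 for the difference of the lines at an unadjusted limma p of 0.141. The brightest probe gave 0.49 without Derlin-2 control 2 and 0.89 without Derlin-2 control 1. By that probe Penk was the only one of the 10 genes whose KO arrays lay outside the controls in opposite directions in the lines, above in the Derlin-1 line and below in the Derlin-2 line, which was so for 5.58% of all genes. Cartpt differed by 0.47 (SE 0.18), with a limma p of 0.0411, and 5.9% of all probes had a p under 0.05. In 8 of the genes this was a positive difference, as in 43.9% of all genes, with a median of 0.39 beside -0.031 over all genes. That median was 0.17 without Derlin-2 control 2 and 0.38 without Derlin-2 control 1. When the lines were averaged, Cartpt was higher in KO by 0.40 (SE 0.091), with a limma p of 0.00445 and an adjusted p of 0.862. Cartpt, Tac1 and Adcyap1 had an unadjusted p under 0.05 in that average, beside 4.39% of all probes, and 0 of the 10 genes passed, beside 0.0126% of all probes.

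Other peptides of hilar and GABAergic interneurons were read beside Penk, and they divided into those with the same pair of directions and those without. Among the former, named after their values were seen, are Cort, Sst and Npy. Cort, which encodes cortistatin, read 11.45 and 11.70 in Derlin-1 controls and 12.32 and 12.49 in Derlin-1 KO, against 11.73 and 12.24 in Derlin-2 controls and 11.69 and 11.65 in Derlin-2 KO. Sst, which encodes somatostatin, had a Derlin-1 difference of 0.38 (SE 0.11) and a Derlin-2 difference of -0.33 (SE 0.11). Npy, which encodes neuropeptide Y, differed by 0.35 (SE 0.15) and -0.51 (SE 0.15). Each of these 3 genes, like Penk, had KO arrays above the controls in the Derlin-1 line and below them in the Derlin-2 line, without overlap. For Cort and Penk the Derlin-2 separation was narrow at control 1. That array read 11.73 for Cort beside 11.69 on KO 1, and 11.58 for Penk beside 11.51 on KO 1. Vip and Cck, which encode vasoactive intestinal peptide and cholecystokinin, were instead lower in both lines, with differences of -0.20 (SE 0.18) and -0.31 (SE 0.18) for Vip and -0.25 (SE 0.10) and -0.13 (SE 0.10) for Cck. Tac2 likewise differed by -0.05 and -0.23. The 12 GABAergic markers, which include Sst and Npy, averaged 11.99 to 12.08 in Derlin-1 controls and 12.02 to 12.19 in KO, and 12.44 to 12.60 in Derlin-2 controls and 12.34 to 12.38 in KO. Of the 12, 8 were higher in Derlin-1 KO and 11 of 12 were lower in Derlin-2 KO, whose averages did not overlap those of its controls. Of all genes, 46.1% were higher in Derlin-1 KO and 54.3% were higher in Derlin-2 KO. Gad1 and Gad2, which encode the enzymes that make GABA, differed by 0.19 and 0.17 in the Derlin-1 line and by -0.05 and -0.06 in the Derlin-2 line. The 4 markers lower in Derlin-1 KO were Vip, Slc32a1, Erbb4 and Dlx1, and these were lower in Derlin-2 KO as well. Slc32a1 differed by -0.13 and -0.14 (SE 0.11 in each line) and Erbb4 by -0.30 and -0.26 (SE 0.38 in each line). The part of interneuron content in the Penk values was not tested.

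The lines were also compared irrespective of genotype. All 4 Derlin-1 arrays exceeded all 4 Derlin-2 arrays for 1 of the 10 genes, Pdyn, with means of 12.12 and 11.51, beside 19.2% of all genes. The reverse held for 1 gene, Tac2, with means that differed by -0.71, beside 15.7% of all genes. Neither count was above the share over all genes. Markers of granule neurons, the cells that make dynorphin, averaged 12.12 to 12.68 on Derlin-1 arrays and 11.85 to 11.93 on Derlin-2 arrays, also without overlap. In the Derlin-1 line the order of the arrays was the same for Pdyn and for the granule neuron average, with control 1 highest, then KO 1, control 2 and KO 2. In the Derlin-2 line the orders differed. The order was read for Pdyn alone among the 10 genes, so how many other genes share it is not known. CA pyramidal markers averaged 9.65 to 10.09 on Derlin-1 arrays against 10.24 to 10.32. Line, slide and tissue content cannot be told apart for these differences.

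**Figure D3:**
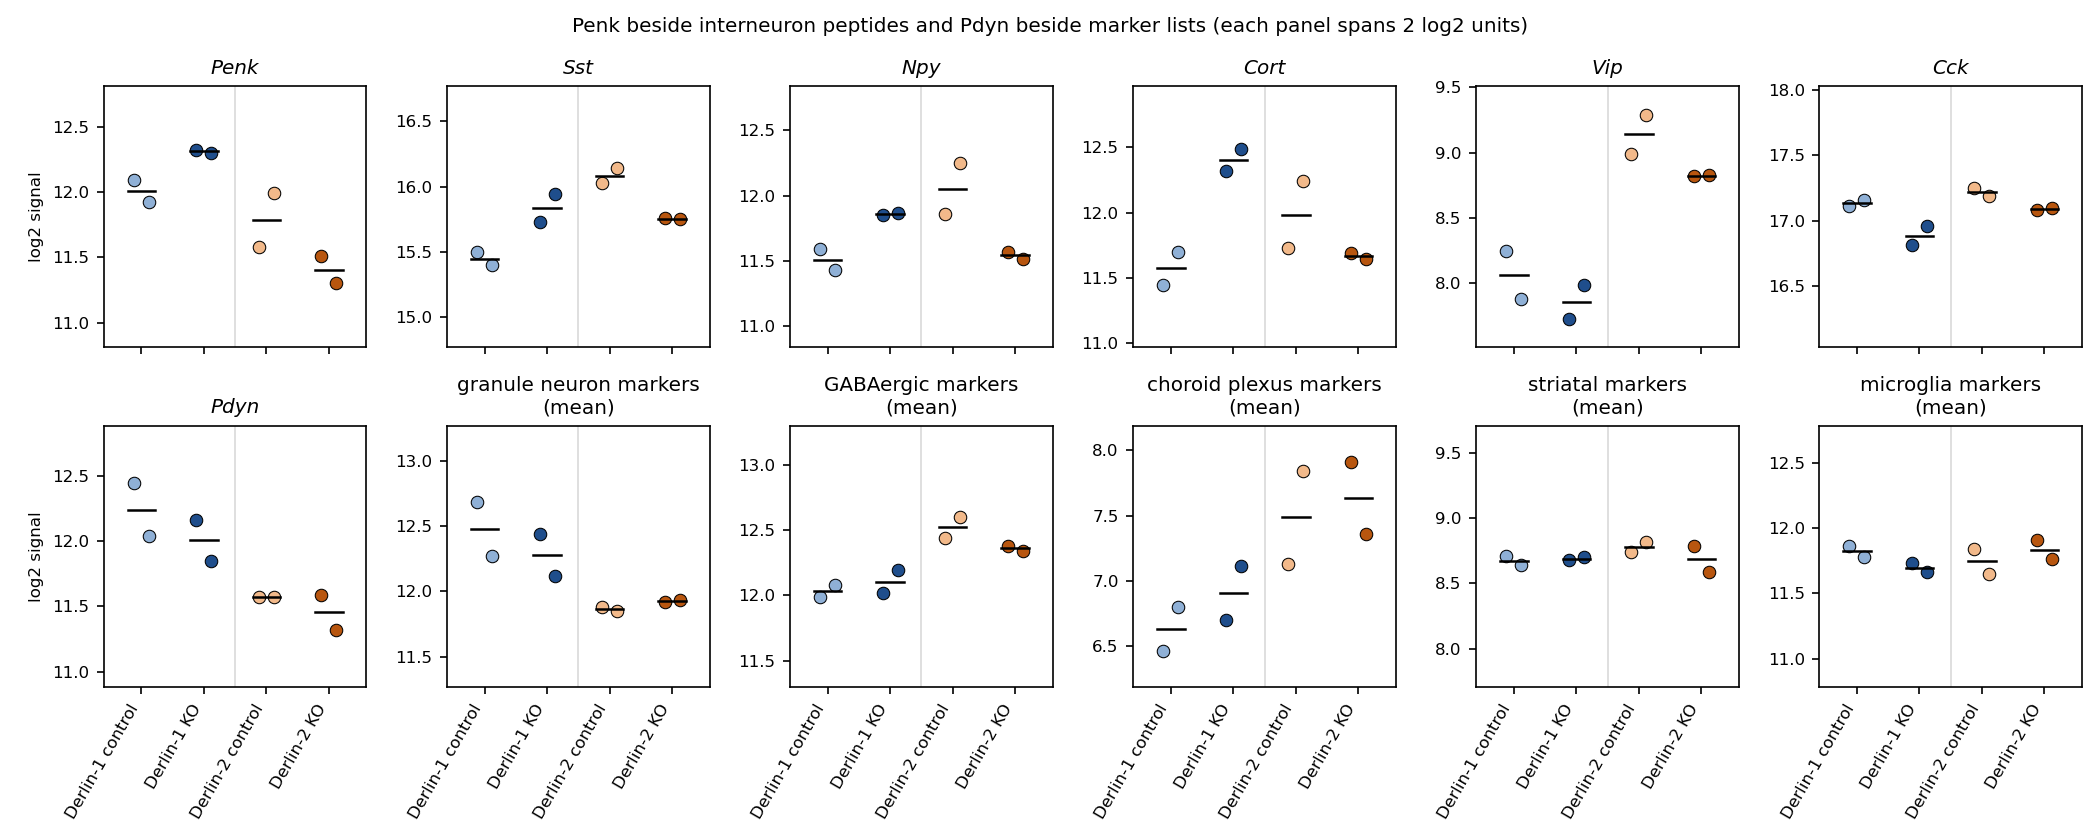
Log2 signals on the 2 arrays of each group (points) with group means (bars); the upper row shows Penk, Sst, Npy, Cort, Vip and Cck, and the lower row Pdyn and the mean log2 signal of 5 marker lists, each panel spanning 2 log2 units. Penk, Sst, Npy and Cort lie above controls in Derlin-1 KO and below controls in Derlin-2 KO, whereas the group means of Vip and Cck are lower in KO in both lines, and the Pdyn and granule neuron panels both hold higher values in the Derlin-1 line.

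Genes around the peptide precursors were read as 5 lists, none of which held a gene past the threshold in either line in limma. These lists were chosen with earlier results of these data known, so their counts beside all genes are a description and not a test. Activity-regulated genes, the immediate early genes and their kin, leaned most to one side. Of 24 genes, 22 were higher in Derlin-1 KO, with a median of 0.25, beside 46.1% of all genes higher. Both KO arrays exceeded both controls in 16 of the 24, beside 17.2% of all genes. In the Derlin-2 line 17 of 24 were higher, with a median of 0.07, beside 54.3% of all genes higher. Nr4a2 and Nr4a1, which encode orphan nuclear receptors, had Derlin-1 differences of 0.59 (SE 0.12) and 0.41 (SE 0.091), with unadjusted limma p-values of 0.00303 and 0.00399. Fosl2 differed by 0.51 and Egr2 by 0.73, both of them transcription factors. In the Derlin-2 line these 4 genes differed by 0.14, -0.11, -0.14 and 0.31.

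Of 25 other neuropeptides and their binding proteins, 23 were measured, and Uts2b and Ucn were not well above background in any group. They split evenly in the Derlin-1 line, with 12 higher, 11 lower and a median of 0.06. In the Derlin-2 line 6 were higher and 17 lower, with a median of -0.23, beside 54.3% of all genes higher. Nppc, which encodes C-type natriuretic peptide, had a difference of 0.54 (SE 0.13) for Derlin-1 and 0.12 (SE 0.13) for Derlin-2. Of the 23, 6 had KO arrays outside the controls in opposite directions in the lines, beside 5.58% of all genes, and 5 of these, Npy, Sst, Cort, Pnoc and Crhbp, had the same directions as Penk.

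The machinery that cuts and packs the precursors gave small differences. In prohormone processing, 5 of 14 genes were higher and 9 lower in each line, with medians of -0.07 for Derlin-1 and -0.04 for Derlin-2. Qpct, which forms pyroglutamate at peptide ends, was 0.51 (SE 0.16) higher in Derlin-2 KO, whereas its Derlin-1 difference was -0.23 (SE 0.16). Prcp, a carboxypeptidase, Pcsk1n, an inhibitor of prohormone convertase, and Scg5, the chaperone of another convertase, differed by -0.37, -0.24 and -0.22 in the Derlin-2 line. Among 14 other granins and dense-core vesicle proteins, medians were 0.002 and -0.07. Chga, which encodes chromogranin A, differed by -0.16 (SE 0.13) and -0.35 (SE 0.13), with KO arrays below controls in both lines, while Baiap3 and Cadps2 differed by 0.49 and 0.19 in the Derlin-1 line and by -0.11 and -0.07 in the Derlin-2 line. Vps13a read above both controls on the Derlin-2 KO arrays, by 0.29 (SE 0.10) with an unadjusted limma p of 0.0295, whereas its Derlin-1 difference was -0.07 (SE 0.10).

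Receptors and binding proteins for the peptides split 9 to 7 in each line, with medians of 0.05 and 0.03. Oprd1, the delta opioid receptor that enkephalins act on, averaged 5.01 in Derlin-1 controls and 3.96 in KO. On neither KO array was it well above background, so the size of this difference is imprecise. Limma put the Derlin-1 difference of Oprd1 at -1.05 (SE 0.22), and its p after adjustment was 0.9997. In the Derlin-2 line Oprd1 differed by 0.17 (SE 0.22). Crhbp, which binds and holds back corticotropin-releasing hormone, was higher by 0.59 (SE 0.19) in Derlin-1 KO, and its Derlin-2 difference was -0.45 (SE 0.19). Oprl1, the nociceptin receptor, and Crhr1, a receptor for corticotropin-releasing hormone, differed by 0.30 and 0.26 in the Derlin-2 line.

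**Figure D4:**
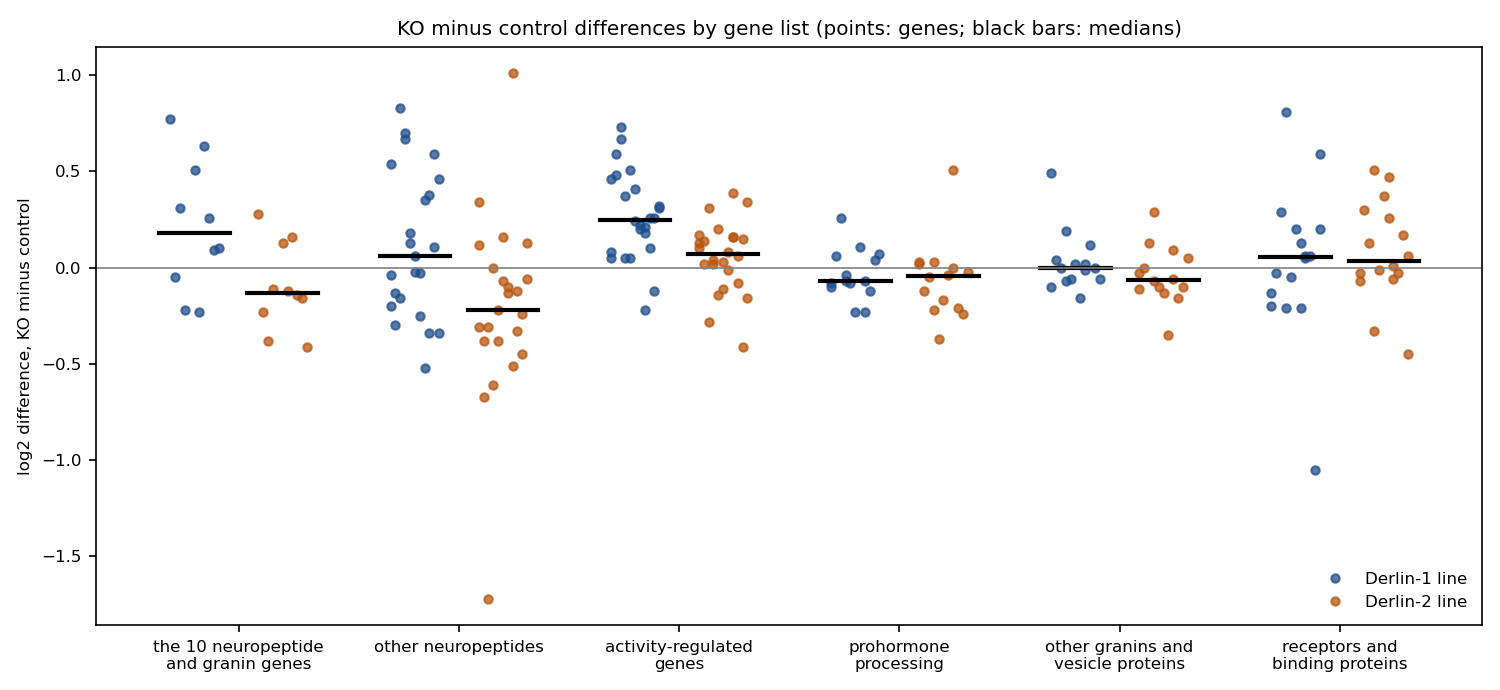
KO minus control log2 differences of every measured gene (points) in 6 gene lists, for the Derlin-1 line and the Derlin-2 line, with medians as black bars. The activity-regulated genes sit mostly above 0 in the Derlin-1 line, 22 of 24, and the other neuropeptides mostly below 0 in the Derlin-2 line, 17 of 23. The lists were chosen with earlier results of these data known.

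The genes whose signals were most like those of Cartpt and Penk across arrays were also listed, after the mean of each line was subtracted from its 4 arrays. Cartpt was followed most closely by Rpl32l, Chac1 and Agtr1a, with Pearson r of 0.990, 0.988 and 0.985 over 8 arrays among 18046 candidate genes. Agtr1a, an angiotensin receptor, differed by 0.76 for Derlin-1 and 0.24 for Derlin-2, Chac1 by 0.28 and 0.05, and Rpl32l by only 0.07 and 0.02. Penk was followed by Phf12, Ints9 and Stx16, with r of 0.979, 0.974 and 0.973. The difference between KO and control was not subtracted, so it enters these correlations. With 8 arrays that share slides and so many candidates, such values are a description.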

How the data were processed

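Dentate gyrus RNA (150 ng per sample) was labelled with Cy3 and hybridised to 8 single-colour Agilent arrays. The authors deposited one scanner file per array with spot intensities that were background-subtracted and detrended by Agilent Feature Extraction (version 10.7.1.1 per the submitters' processing notes). The authors also deposited tables of log2 values, quantile-normalized and shifted to each probe's median, which served only as an alternative, and their fold change columns, which were not used.

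Here, the intensities were floored at 1, log2-transformed and quantile-normalized, outlier and control spots were left out, and spots of a probe were averaged. Gene symbols came from the deposited tables, joined by probe name. Limma (version 3.58.1, R 4.3.3) was fitted to 4 group means over 8 arrays, with 4 residual and 2.07 prior degrees of freedom. The tests were two-sided, and p-values were Benjamini-Hochberg adjusted over all probes tested, with a threshold of 0.05. The number of arrays limits the precision. Marker and list averages are means of log2 signals. All 10 genes are named, and up to 4 examples per list were those with the smallest p in either line. The genes and lists were chosen with earlier results of these data known. The script was tested on simulated data. Alternatives changed the scaling, the background correction, the filter, the probe summary, the samples fitted, the replicate block and the call rule. The array design follows an older mouse assembly, so probe positions are not given.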

Additional observations from a re-analysis of the deposited data

How the results depend on the processing

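None of the 10 genes passed an adjusted p of 0.05 in limma under any alternative run: other scaling, background correction, filters, deposited values, the line fitted alone, averaged probes, or any array left out. Counting genes whose arrays did not overlap at 1.5-fold or more gave 2 genes for Derlin-1 and 0 for Derlin-2. The labels do not say that a replicate number marks a shared animal or batch. Deviations of same-numbered arrays from their group means correlated over probes at r = 0.27 for Derlin-1 and -0.10 for Derlin-2, and with a replicate block 0 genes passed in each contrast, while the probes called in the Derlin-2 line went from 18 to 0. Averaging all probes of a gene moved the median of the 10 genes to 0.10 in the Derlin-1 line, 0.25 in the difference of the lines and -0.09 in the mean of the lines.

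Of 620 values of single genes, 20 changed direction. The Scg2 difference in the mean of the lines was 0.02 under percentile scaling and 0.01 in the deposited values. When single arrays were left out, the median of the 10 genes ranged from 0.17 to 0.26 in the Derlin-1 line, -0.18 to -0.03 in the Derlin-2 line, 0.17 to 0.45 in the difference of the lines and -0.10 to 0.06 in their mean. In the Derlin-1 line, Tac2 ranged from -0.14 to 0.04, Crh from -0.01 to 0.21 and Scg2 from -0.07 to 0.25. In the Derlin-2 line, Pdyn ranged from -0.25 to 0.02, Crh from -0.84 to 0.01 and Adcyap1 from -0.03 to 0.58. Pdyn ranged from -0.32 to 0.08 in the difference of the lines. In the mean of the lines, Penk ranged from -0.14 to 0.06, Crh from -0.37 to 0.06, Vgf from -0.001 to 0.13 and Scg2 from -0.11 to 0.05. The cause was not tested. Cartpt kept its direction in both lines, from 0.52 to 0.75 in the Derlin-1 line. With 2 arrays a group, differences smaller than the 95% intervals could not be resolved.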
